A study of Rattus norvegicus with 22 samples.

Results

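Meiotic homologous recombination genes were followed through 2 stages of rat sperm development. The set was 9 genes, Spo11, Dmc1, Rad51c, Mnd1, Psmc3ip, Tex15, Brca1, Brca2 and Rpa2, given by name. An accession of the array mapped to 7 of the 9, through 8 probes, out of 15154 genes with a symbol on the array. No accession mapped to Spo11 or Mnd1, and these 2 genes were not analysed here. In the annotation of build GRCr8 the measured genes span chr7:113005278-113047854 (Dmc1), chr10:72702299-72728980 (Rad51c), chr10:86524546-86527764 (Psmc3ip), chr16:65302049-65362065 (Tex15), chr10:86917693-86978012 (Brca1), chr12:4895092-4939340 (Brca2) and chr5:150260668-150271329 (Rpa2). All are protein-coding. Where in its transcript each probe lies was not determined.

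The study profiled RNA of separated male germ cells on 22 one-colour Agilent arrays. Round spermatids came from 6 cyclophosphamide rats and 6 saline rats, and pachytene spermatocytes from 5 cyclophosphamide rats and 5 saline rats. Cyclophosphamide, an alkylating anticancer drug, was given by gavage at 6 mg/kg on 6 days a week for 4 weeks, and saline on the same schedule. Cells were separated by sedimentation at unit gravity, which enriches a cell type by size and does not purify it. The labels give no strain, age or genotype for the rats.

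Homologous recombination repairs the double-strand breaks that meiotic cells make on purpose early in prophase. The broken ends are cut back to single strands, which RPA coats. BRCA2 and its partners then help load recombinases such as DMC1, which search the homologous chromosome for a matching sequence. Pachytene spermatocytes are the prophase cells that complete this repair, and round spermatids are the haploid cells after both meiotic divisions. SPO11 makes the breaks, and MND1 and PSMC3IP form a pair that helps DMC1 invade the homologue.

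A level below is the log2 of a probe's processed intensity minus that of its array's 75th percentile, so that 0 is as bright as that percentile. Levels of different probes cannot be set against each other. The 75th percentile had an intensity of 1069.5 to 2423.3 units across the 22 arrays, and 65.3% to 76.4% of an array's probes stood well above background. No saturated spot was found. Arrays of the same group correlated at 0.981 to 0.991 over all genes, with 1 probe a gene. A gene passed where limma's Benjamini-Hochberg adjusted p, taken over all genes tested, was below 0.05. The arrays are bulk samples, in which fewer cells of a type and less RNA per cell cannot be told apart.

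The markers fitted the labelled stages in most respects. All 14 round spermatid markers were higher in round spermatids in both treatments, with median log2 differences of 2.94 in cyclophosphamide rats and 2.39 in saline rats. Of 14 pachytene markers, 11 were lower and 3 higher in cyclophosphamide rats, and 9 were lower and 3 higher in saline rats. Markers of other cells also moved with the stage. All 9 tested macrophage markers were higher in round spermatids of both treatments (median log2 differences of 2.84 in cyclophosphamide rats and 2.66 in saline rats). Of 11 Sertoli cell markers 9 were lower and 1 higher in each treatment, with medians of -2.69 in cyclophosphamide rats and -2.62 in saline rats. All tested Leydig cell markers were lower, 6 of 6 in cyclophosphamide rats and 7 of 7 in saline rats. In each treatment 5 of 8 spermatogonium markers and 5 of 6 tested peritubular myoid markers were higher, and 0 lower. Of 5 tested leptotene and zygotene markers, 3 were lower and 1 higher in each treatment. The summed linear level of the 10 macrophage markers, in multiples of the 75th percentile, ran from 53.2 to 88.7 in round spermatids of cyclophosphamide rats and from 53.1 to 81.5 in those of saline rats, against 8.75 to 18.2 in pachytene spermatocytes of cyclophosphamide rats and 9.91 to 22.3 in those of saline rats. That of the 11 Sertoli markers ran from 2.83 to 5.77 and from 3.09 to 8.18 in round spermatids of cyclophosphamide and saline rats, against 26.2 to 46.3 and 27.5 to 41.7 in their pachytene spermatocytes. That of the 14 pachytene markers overlapped between the stages. It ran from 189.6 to 274.2 and from 201.6 to 271.8 in round spermatids of cyclophosphamide and saline rats. In their pachytene spermatocytes it ran from 247.5 to 298 and from 223.8 to 301.4. The part of cells of other types in the results below was not tested.

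The regulatory sequence next to each start site is shown for the 5 members with a stage difference that the promoter table holds, so that genes that move in opposite directions can be read side by side. The windows are RefSeq sequence of build GRCr8, from 250 bases before to 50 after the start, on the gene's own strand. The start is the one the promoter table uses, and positions below are counted from it. It is the first base of the gene span given above for Dmc1. For Brca1, Brca2, Psmc3ip, Rad51c and Rpa2 it lies inside that span, and the Brca1, Brca2 and Rad51c windows lie wholly inside. They lie at chr10:86977532-86977831 on the minus strand for Brca1, chr7:113047805-113048104 on the minus strand for Dmc1, chr10:86527617-86527916 on the minus strand for Psmc3ip, chr10:72728415-72728714 on the minus strand for Rad51c and chr5:150260522-150260821 on the plus strand for Rpa2. Capitals mark matches, on either strand, to the CRE (TGACGTCA), the CCAAT box (CCAAT), the E2F motif (GCGNGAA), the E-box (CACGTG) or the STRA8-MEIOSIN motif (CNCCTCAG).
Brca1: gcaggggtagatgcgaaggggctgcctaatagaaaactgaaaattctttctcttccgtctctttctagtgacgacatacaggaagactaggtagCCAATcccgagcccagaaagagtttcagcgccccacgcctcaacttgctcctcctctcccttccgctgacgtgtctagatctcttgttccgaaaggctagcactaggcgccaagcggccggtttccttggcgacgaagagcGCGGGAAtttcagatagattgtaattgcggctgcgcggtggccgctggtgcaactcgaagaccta
Dmc1: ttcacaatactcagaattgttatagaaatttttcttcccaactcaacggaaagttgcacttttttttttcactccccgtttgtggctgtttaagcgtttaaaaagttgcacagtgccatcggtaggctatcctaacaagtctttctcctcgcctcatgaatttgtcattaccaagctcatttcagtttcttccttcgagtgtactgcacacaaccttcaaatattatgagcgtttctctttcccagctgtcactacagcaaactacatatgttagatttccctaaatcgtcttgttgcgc
Psmc3ip: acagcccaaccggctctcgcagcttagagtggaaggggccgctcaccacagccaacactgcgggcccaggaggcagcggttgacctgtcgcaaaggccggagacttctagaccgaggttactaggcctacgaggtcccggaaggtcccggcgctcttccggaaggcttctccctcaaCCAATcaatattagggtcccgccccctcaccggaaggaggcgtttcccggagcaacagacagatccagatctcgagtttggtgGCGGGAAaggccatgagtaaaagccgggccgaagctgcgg
Rad51c: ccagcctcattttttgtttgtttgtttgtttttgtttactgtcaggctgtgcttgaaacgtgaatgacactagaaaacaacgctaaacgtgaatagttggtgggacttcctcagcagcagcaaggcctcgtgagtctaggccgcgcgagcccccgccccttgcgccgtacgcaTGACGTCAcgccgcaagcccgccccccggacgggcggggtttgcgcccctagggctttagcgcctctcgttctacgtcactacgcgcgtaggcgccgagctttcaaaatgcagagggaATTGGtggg
Rpa2: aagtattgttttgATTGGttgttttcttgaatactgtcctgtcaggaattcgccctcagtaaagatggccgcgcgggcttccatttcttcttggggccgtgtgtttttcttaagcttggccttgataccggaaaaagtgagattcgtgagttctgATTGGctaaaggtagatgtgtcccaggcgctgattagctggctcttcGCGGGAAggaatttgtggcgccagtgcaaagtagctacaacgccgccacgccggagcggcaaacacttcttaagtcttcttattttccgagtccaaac
The first 3 genes were higher and the last 2 lower in round spermatids. Rad51c alone among the 6 measured members with a window held a CRE, the full palindrome, at positions -77 to -70 from the start, and 1.83% of all 33469 windows held one. The E2F motif stood as GCGGGAA in 3 of the 6, at positions -15 to -9 in Brca1, -48 to -42 in Rpa2 and 11 to 17 in Psmc3ip, against 8.67% of all windows. It was thus in windows of genes that were higher and of a gene that was lower. A CCAAT box was in 4 of the 6, against 37.5% of all windows. The Dmc1 window held none of these 5 motifs, and 39.7% of its bases were G or C. The STRA8-MEIOSIN motif, that of the factors that switch on meiosis in mice, occurred in 1 of the 6, as CACCTCAG at positions -142 to -135 in Brca2, against 8.86% of all windows. No member window held the E-box, which was in 6.42% of all. A MYB core (AACNG), not capitalised, was in 4 of the 6 and in 81.4% of all windows. The matches in a window did not overlap. A match describes the letters and not a bound site.

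Between the stages, 6 of the 7 measured genes passed, in opposite directions. Brca1, Tex15, Dmc1 and Psmc3ip were higher in round spermatids and Rad51c and Rpa2 were lower, both in cyclophosphamide and in saline rats, and Brca2 did not pass in either. Among all genes, 38.8% of 19352 were called higher and 40.4% lower in cyclophosphamide rats, and 38.3% of 19422 higher and 37% lower in saline rats. With 79.2% and 75.3% of all genes called in either direction, a count of 6 of 7 is near the background. The 2 comparisons share no array. Within each treatment the groups of the 2 stages did not overlap for any of the 6, although those of Rpa2 all but met at -0.768 in saline rats. Among all genes tested, the groups did not overlap for 67.1% in cyclophosphamide rats and 57.1% in saline rats.

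**Figure D1:**
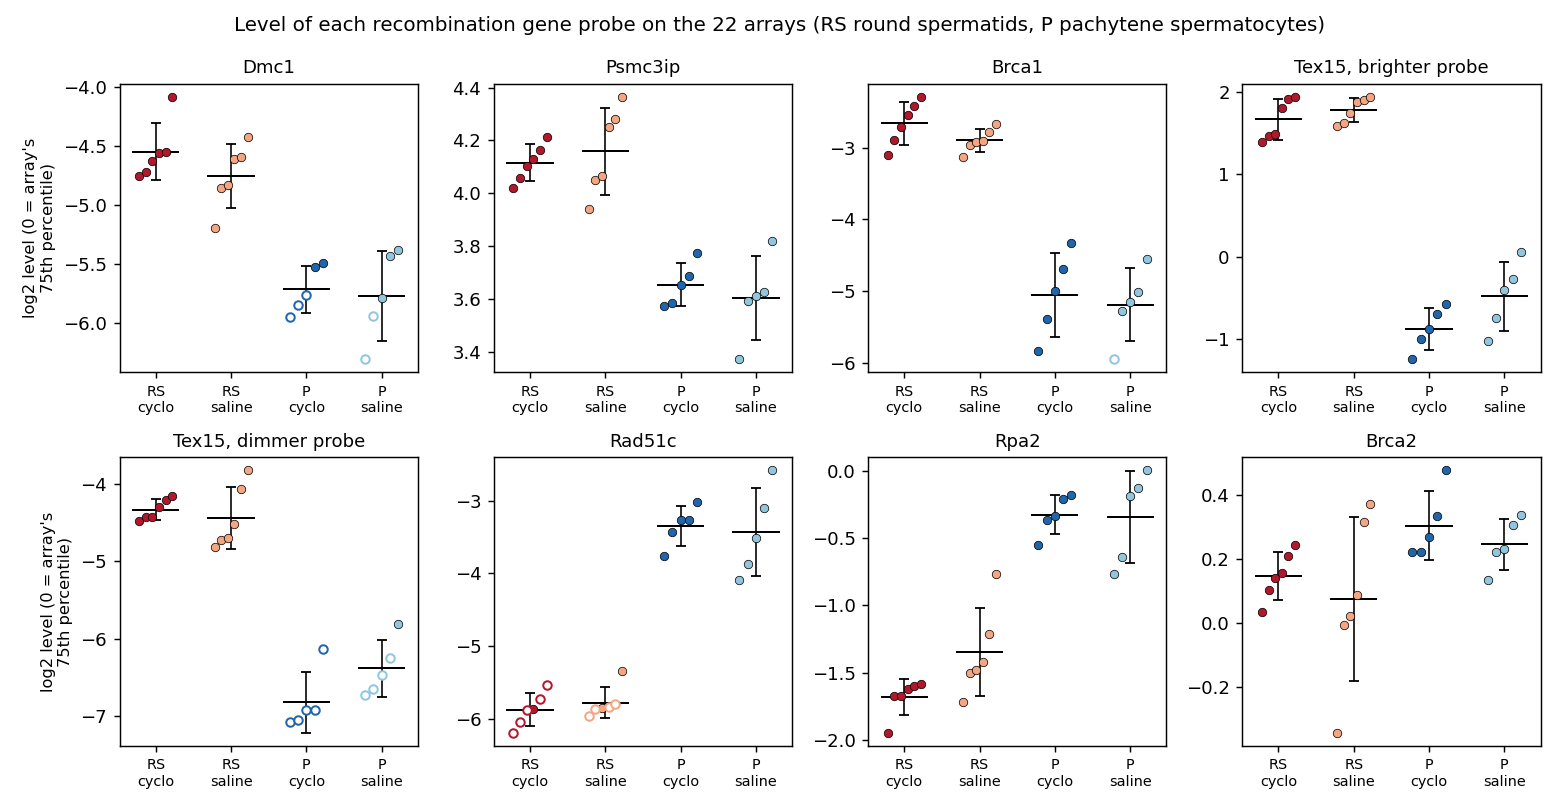
Level of each of the 8 probes on every array, in log2 units relative to the array's 75th percentile. Points are arrays, open where the probe was not well above background, bars are the group mean and SD, RS is round spermatids and P pachytene spermatocytes. Within a treatment the stages do not overlap except for Brca2, although those of Rpa2 all but meet in saline rats. The drug groups overlap in every panel.

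The recombinase Dmc1, which is made only in meiotic cells, was dim on these arrays. Dmc1 ran from -4.75 to -4.08 (median -4.59) on the log2 scale in round spermatids of the 6 cyclophosphamide rats, and from -5.19 to -4.42 (median -4.72) in those of the 6 saline rats. The 5 cyclophosphamide pachytene arrays gave -5.76, -5.84, -5.53, -5.49 and -5.95, and the 5 saline ones -5.93, -5.79, -6.30, -5.38 and -5.43. Every round spermatid array lay above every pachytene array. The probe was well above background on all 12 round spermatid arrays, but on only 2 of 5 cyclophosphamide and 3 of 5 saline pachytene arrays, where its mean intensity was 23.4 and 24.8 units. The difference was 1.17 ± 0.17 (log2, SE; 2.24-fold; limma adjusted p = 1.21e-06) in cyclophosphamide rats and 1.02 ± 0.17 (2.02-fold; limma adjusted p = 9.12e-06) in saline rats. With normexp background correction and quantile normalization it was 0.42 in cyclophosphamide rats and 0.33 in saline rats and still passed.

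Psmc3ip, the partner of Mnd1 that stimulates DMC1, had the smallest of the 6 stage differences. Psmc3ip ran from 4.02 to 4.21 (median 4.12) on the log2 scale in round spermatids of the 6 cyclophosphamide rats, and from 3.94 to 4.37 (median 4.16) in those of the 6 saline rats. The 5 cyclophosphamide pachytene arrays gave 3.58, 3.57, 3.69, 3.77 and 3.65, and the 5 saline ones 3.37, 3.82, 3.62, 3.59 and 3.61. All arrays were bright, with mean intensities of 28980 and 28650 units in round spermatids of cyclophosphamide and saline rats, against 15290 and 16080 units in their pachytene spermatocytes. The difference was 0.46 ± 0.10 (log2, SE; 1.38-fold; limma adjusted p = 0.000136) in cyclophosphamide rats and 0.56 ± 0.10 (1.47-fold; limma adjusted p = 1.63e-05) in saline rats. After quantile normalization it was 0.27 and 0.30 in those rats and still passed. Within slide 1 it was 0.59 (limma adjusted p = 0.0621) in cyclophosphamide rats and 0.72 (0.037) in saline rats, and within slide 2 it was 0.42 (0.154) and 0.60 (0.0574), where each slide held 1 pachytene array a treatment.

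Rad51c, a mediator that helps load and stabilise recombinase filaments, had the largest fall of the members in the main fit. Rad51c ran from -6.19 to -5.54 (median -5.87) on the log2 scale in round spermatids of the 6 cyclophosphamide rats, and from -5.96 to -5.35 (median -5.85) in those of the 6 saline rats. In pachytene spermatocytes it stood at -3.76, -3.26, -3.43, -3.26 and -3.01 on the 5 cyclophosphamide arrays, against -4.09, -2.58, -3.09, -3.86 and -3.51 on the 5 saline arrays. Every pachytene array was above every round spermatid array, with a gap of more than a log2 unit. Only 1 of 6 cyclophosphamide and 2 of 6 saline round spermatid arrays had the probe well above background, against all 10 pachytene arrays. The difference was -2.53 ± 0.21 (log2, SE; 5.78-fold lower; limma adjusted p = 1.42e-10) in cyclophosphamide rats and -2.35 ± 0.21 (5.1-fold lower; limma adjusted p = 7.06e-10) in saline rats. Since most round spermatid arrays were not well above background, the size of this fall depends on signal near background. With normexp and quantile normalization it was -1.17 and -1.11 in those rats, and it was -1.59 within slide 1 in saline rats, each time still passing. Under that normexp setting Rpa2 stood at -1.20 in cyclophosphamide rats and -0.88 in saline rats, so Rad51c was the lowest in saline rats alone.

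Tex15, which mice need to load DMC1 at the breaks, had 2 probes. The brighter probe ran from 1.39 to 1.94 (median 1.65) on the log2 scale in round spermatids of the 6 cyclophosphamide rats, and from 1.59 to 1.94 (median 1.81) in those of the 6 saline rats. In pachytene spermatocytes it stood at -0.996, -0.58, -0.88, -1.24 and -0.70 on the 5 cyclophosphamide arrays, against -0.40, 0.05, -0.74, -1.03 and -0.27 on the 5 saline arrays. The stages were far apart, and all 22 arrays were well above background. The difference was 2.55 ± 0.17 (log2, SE; 5.84-fold; limma adjusted p = 3.45e-12) in cyclophosphamide rats and 2.26 ± 0.17 (4.79-fold; limma adjusted p = 4.4e-11) in saline rats. The dimmer probe ran from -4.48 to -4.15 (median -4.36) on the log2 scale in round spermatids of the 6 cyclophosphamide rats, and from -4.82 to -3.83 (median -4.61) in those of the 6 saline rats. The 5 cyclophosphamide pachytene arrays gave -6.92, -6.13, -6.92, -7.05 and -7.07, and the 5 saline ones -6.65, -6.25, -6.73, -6.47 and -5.81. It separated the stages the same way, but was well above background on 0 of 5 cyclophosphamide and 1 of 5 saline pachytene arrays. In a fit of every probe, where 38.6% of 21671 probes were called higher in cyclophosphamide rats and 38% of 21758 in saline rats, it was higher by 2.49 ± 0.20 (log2, SE; limma adjusted p = 8.43e-11) and 1.94 ± 0.20 (limma adjusted p = 7.31e-09). No cyclophosphamide pachytene array had it well above background. With each of these arrays set to its lowest signal well above background, round spermatids of these rats were 3.3-fold higher. Some probes not well above background were brighter than that signal, so 3.3-fold is not a strict lower bound.

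Brca1, which promotes the cutting back of break ends, was also low in pachytene spermatocytes. Brca1 ran from -3.10 to -2.29 (median -2.63) on the log2 scale in round spermatids of the 6 cyclophosphamide rats, and from -3.13 to -2.67 (median -2.92) in those of the 6 saline rats. Pachytene spermatocytes had -5.40, -4.34, -4.996, -5.84 and -4.70 in cyclophosphamide rats and -5.29, -4.55, -5.01, -5.95 and -5.16 in saline rats. The spread among pachytene arrays was wide, with SDs of 0.59 in cyclophosphamide rats and 0.51 in saline rats, against 0.30 and 0.16 in their round spermatids. The groups of the 2 stages still stood apart by more than a log2 unit. The probe was well above background on all arrays but 1, a saline pachytene array. The difference was 2.39 ± 0.23 (log2, SE; 5.25-fold; limma adjusted p = 3e-09) in cyclophosphamide rats and 2.30 ± 0.23 (4.92-fold; limma adjusted p = 7.5e-09) in saline rats. With normexp and quantile normalization it was 1.33 and 1.23 in those rats and still passed. The pachytene signal was dim, at mean intensities of 39.7 units in cyclophosphamide and 38 in saline rats. The size of the difference thus depends on the background correction.

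Brca2, which brings DMC1 to single-stranded DNA, was the 1 measured member without a stage call. Brca2 ran from 0.04 to 0.24 (median 0.15) on the log2 scale in round spermatids of the 6 cyclophosphamide rats, and from -0.34 to 0.37 (median 0.06) in those of the 6 saline rats. Pachytene spermatocytes had 0.22, 0.34, 0.22, 0.27 and 0.48 in cyclophosphamide rats and 0.14, 0.31, 0.34, 0.22 and 0.23 in saline rats. The 4 groups overlapped. The difference was -0.16 ± 0.11 (log2, SE; limma adjusted p = 0.183; 95% interval -0.38 to 0.07) in cyclophosphamide rats and -0.17 ± 0.11 (limma adjusted p = 0.15; -0.39 to 0.05) in saline rats. The intervals leave room for round spermatids to be 1.31-fold lower in saline rats, and for a small excess.

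Rpa2, a subunit of the RPA complex that coats single-stranded DNA in replication as well as repair, was lower in round spermatids. Rpa2 ran from -1.95 to -1.58 (median -1.65) on the log2 scale in round spermatids of the 6 cyclophosphamide rats, and from -1.72 to -0.77 (median -1.45) in those of the 6 saline rats. The 5 cyclophosphamide pachytene arrays gave -0.55, -0.18, -0.33, -0.36 and -0.21, and the 5 saline ones -0.77, 0.001, -0.19, -0.64 and -0.13. The highest round spermatid array, saline rat 17, was level with the lowest pachytene array, saline rat 13, to within 0.001. The difference was -1.35 ± 0.15 (log2, SE; 2.56-fold lower; limma adjusted p = 3.95e-08) in cyclophosphamide rats and -1.004 ± 0.15 (2.01-fold lower; limma adjusted p = 4.03e-06) in saline rats. Within slide 1, which held 3 round spermatid arrays and 1 pachytene array of saline rats, the saline difference was -0.39 and did not pass (limma adjusted p = 0.361), and within slide 2 it was -1.36.

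**Figure D2:**
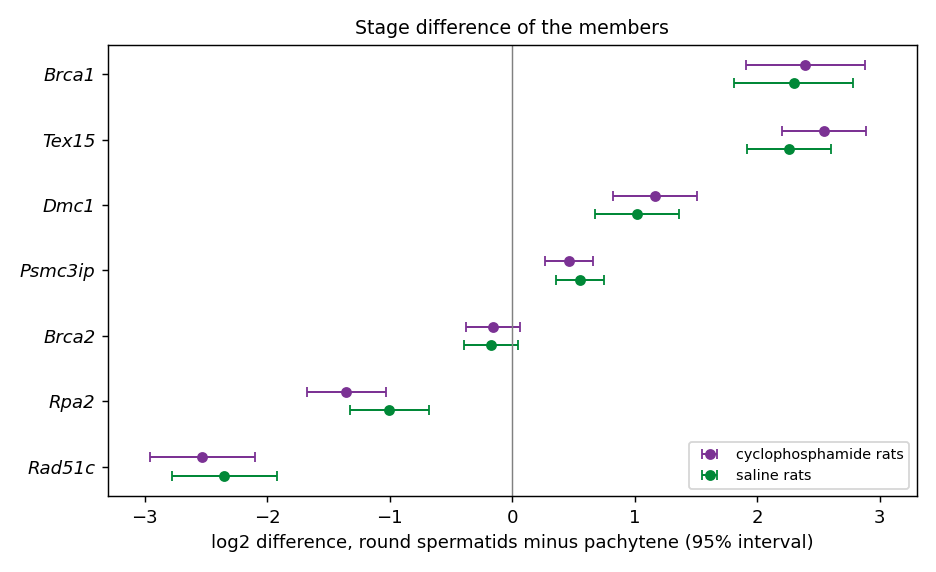
Log2 difference of round spermatids minus pachytene spermatocytes for the 7 measured genes, with 95% intervals, in cyclophosphamide rats and in saline rats. Brca1, Tex15, Dmc1 and Psmc3ip lie to the right of 0 and Rad51c and Rpa2 to the left in both, and the intervals of Brca2 cross 0.

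The arrays lay on 4 slides, of which slides 1 and 2 held both cell types. Within these 2 slides the stage difference of Tex15 was 2.26 and 2.35 in cyclophosphamide rats and 2.15 and 2.56 in saline rats. That of Brca1 was 1.76 and 1.95 in cyclophosphamide rats and 2.16 and 2.35 in saline rats, and that of Dmc1 was 1.25 and 1.45 in cyclophosphamide rats and 1.31 and 1.43 in saline rats, given from the lower to the higher slide value. All of these passed.

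Of 49 other genes of break formation, end resection, strand invasion and mediation, 36 had a probe. Between the stages 6 of 35 tested were higher and 22 lower in cyclophosphamide rats, and 5 of 34 were higher and 21 lower in saline rats. Over all genes tested, 38.8% were higher and 40.4% lower in cyclophosphamide rats, and 38.3% higher and 37% lower in saline rats. The median log2 difference was -0.85 in cyclophosphamide rats and -0.77 in saline rats, beside -0.02 and 0.01 over all genes. Among the largest falls in saline rats were those of the histone H2ax that is phosphorylated at breaks (-2.36 ± 0.15, log2, SE), Rad50 (-2.20 ± 0.14), the ATPase Fignl1 (-2.04 ± 0.19), and Mei1, needed for break formation in mice (-1.98 ± 0.15). In cyclophosphamide rats these were -2.29, -2.52, -1.997 and -2.04. The helicase Helq was not well above background on any round spermatid array, so the size of its fall was not measured. Those arrays were set to their lowest signal well above background, or to Helq's own where brighter. On that footing it was 3.02-fold lower in cyclophosphamide rats and 3.24-fold lower in saline rats, which is not a strict bound. These values lie beyond the list's median in both, so the median is the same with them. All 5 rises in saline rats were Rad54b, a DNA translocase (2.25 ± 0.19), Mre11 (1.06 ± 0.12), Iho1, part of the break-forming machinery (1.004 ± 0.23), Meiob (0.89 ± 0.16) and the mediator Xrcc2 (0.69 ± 0.16). In cyclophosphamide rats they were 2.40, 1.32, 1.59, 0.996 and 0.79. Iho1 was well above background on only 2 of 5 cyclophosphamide and 3 of 5 saline pachytene arrays. The size of its rise therefore rests partly on signal near background.

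Transcripts of several proteins that work together were called in opposite directions, or 1 was called and the other not. In round spermatids of saline rats Brca1 was higher by 2.30, while Bard1, which forms a dimer with it, fell by 0.75 ± 0.16 (log2, SE). In the MRE11 complex, which starts resection, Mre11 was higher by 1.06, Rad50 fell by 2.20, and Nbn stood at -0.09 ± 0.16 and did not pass. Meiob was higher by 0.89 and its partner Spata22 fell by 1.32 ± 0.17. Rpa2 fell by 1.004, while Rpa3, another RPA subunit, stood at -0.31 ± 0.19 and did not pass. Rad54b was higher by 2.25 and its relative Rad54l fell by 0.79 ± 0.11. These partners were set side by side after their values were seen, and the differences between partners were not tested. They were picked because they differed and do not stand for all partners. The mediators Swsap1 and Zswim7, for instance, were both lower in saline rats (-1.81 ± 0.22 and -0.91 ± 0.09, log2, SE).

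**Figure D3:**
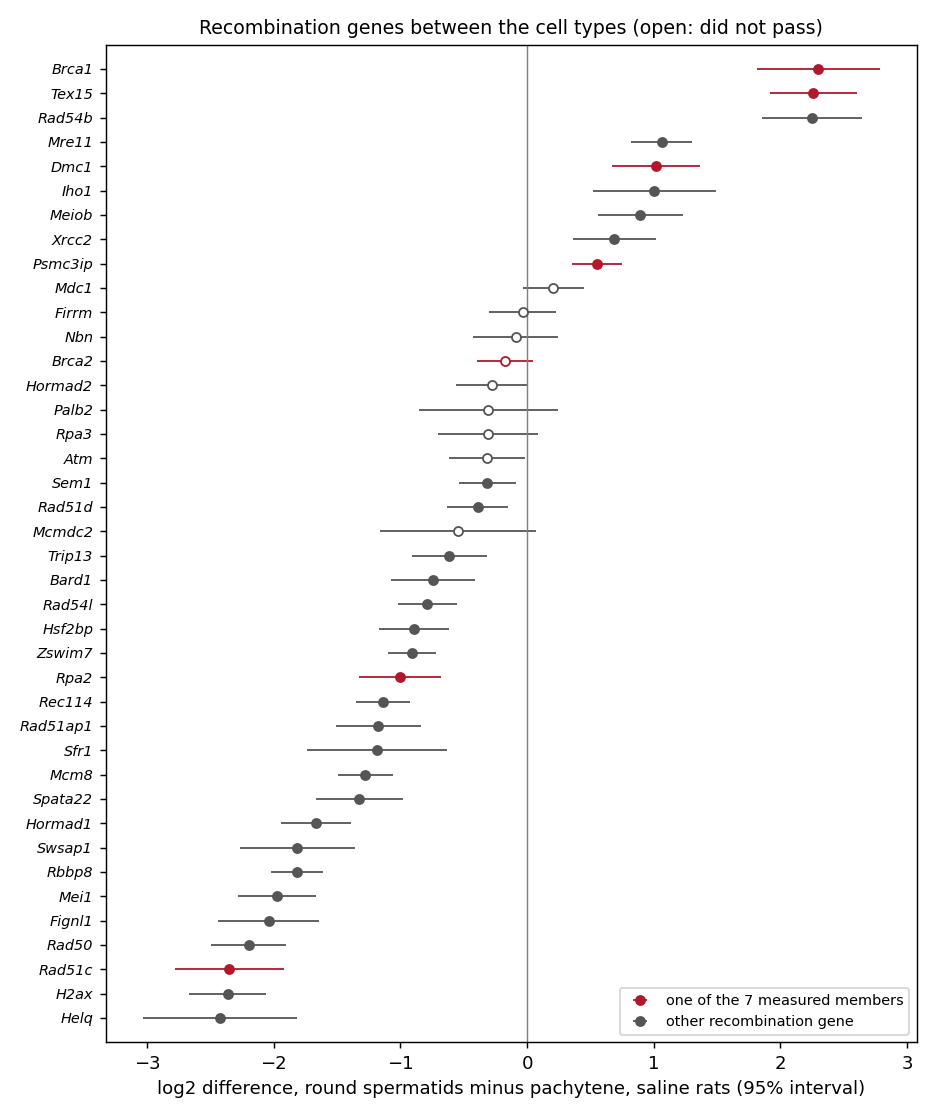
Log2 difference of round spermatids minus pachytene spermatocytes in saline rats, with 95% intervals, for the 7 measured members and 33 of the 34 other recombination genes tested, ordered by value. Filled points passed at an adjusted p of 0.05, and most of the other genes lie to the left of 0. Helq had no round spermatid array well above background, so its point is not a measured size.

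Cyclophosphamide against saline gave no call among the members, and no call among all genes. In pachytene spermatocytes limma called 0 of 18470 genes (0%; 1347 at an unadjusted p under 0.05), and in round spermatids 0 of 18864 (0%; 626 at an unadjusted p under 0.05). The difference between the 2 drug effects called 0 of 19664 (0%; 1504 at an unadjusted p under 0.05, smallest adjusted p 0.0586). Of the members, 6 could be tested in each cell type and 7 for the difference. Dmc1 and Rad51c entered the difference although each could be tested in 1 cell type alone. Their values for the difference therefore rest partly on signal near background. The median log2 difference of the 6 was 0.05 in pachytene spermatocytes and 0.015 in round spermatids, beside 0.03 and -0.01 over all genes tested.

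Tex15 had the lowest unadjusted p in pachytene spermatocytes. It stood at -0.40 ± 0.17 (log2, SE, n = 5 and 5 arrays; limma adjusted p = 0.681), with group means of -0.88 in cyclophosphamide and -0.48 in saline spermatocytes. The groups overlapped. The 14 round spermatid markers moved beside it, since all 14 were below 0 in this comparison, with a median of -0.45, and 7 had an unadjusted p under 0.05 although none passed. Their summed linear level ran from 159 to 329 in cyclophosphamide and from 172 to 425 in saline pachytene spermatocytes. All 9 tested macrophage markers were below 0 as well, with a median of -0.30. With the mean level of the round spermatid markers as a covariate, the Tex15 difference was -0.08 ± 0.16 (log2, SE), a choice made after the data were seen. With the slide as a block it was -0.43, and within slides 1 to 4 it was -0.17, 0.04, -0.66 and -0.75, each from 2 or 3 arrays.

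Across the 10 pachytene arrays, the level of Tex15 went with the mean level of the 14 round spermatid markers. Pearson's r was 0.883 (permutation p = 0.0013, two-sided; 0.0182 adjusted over 14 relations) and Spearman's rho 0.891 (permutation p = 0.00128; 0.0179 adjusted). Without the 2 arrays farthest from the median of the markers, r was 0.815. The slides held 2 or 3 pachytene arrays each, too few for a value within a slide. None of the other 13 relations passed, among them Brca1 with r = 0.614 (permutation p = 0.0588; 0.206 adjusted), rho = 0.636 (0.0552; 0.262 adjusted) and r = 0.765 without 2 arrays. Dmc1 and Psmc3ip, also higher in round spermatids, had the opposite sign on these arrays. Their r was -0.528 (-0.582 without 2 arrays) and -0.282 (-0.612 without 2 arrays). Tex15 is also much higher in round spermatids, and round spermatid RNA in a pachytene fraction and expression in the spermatocytes cannot be told apart here.

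**Figure D4:**
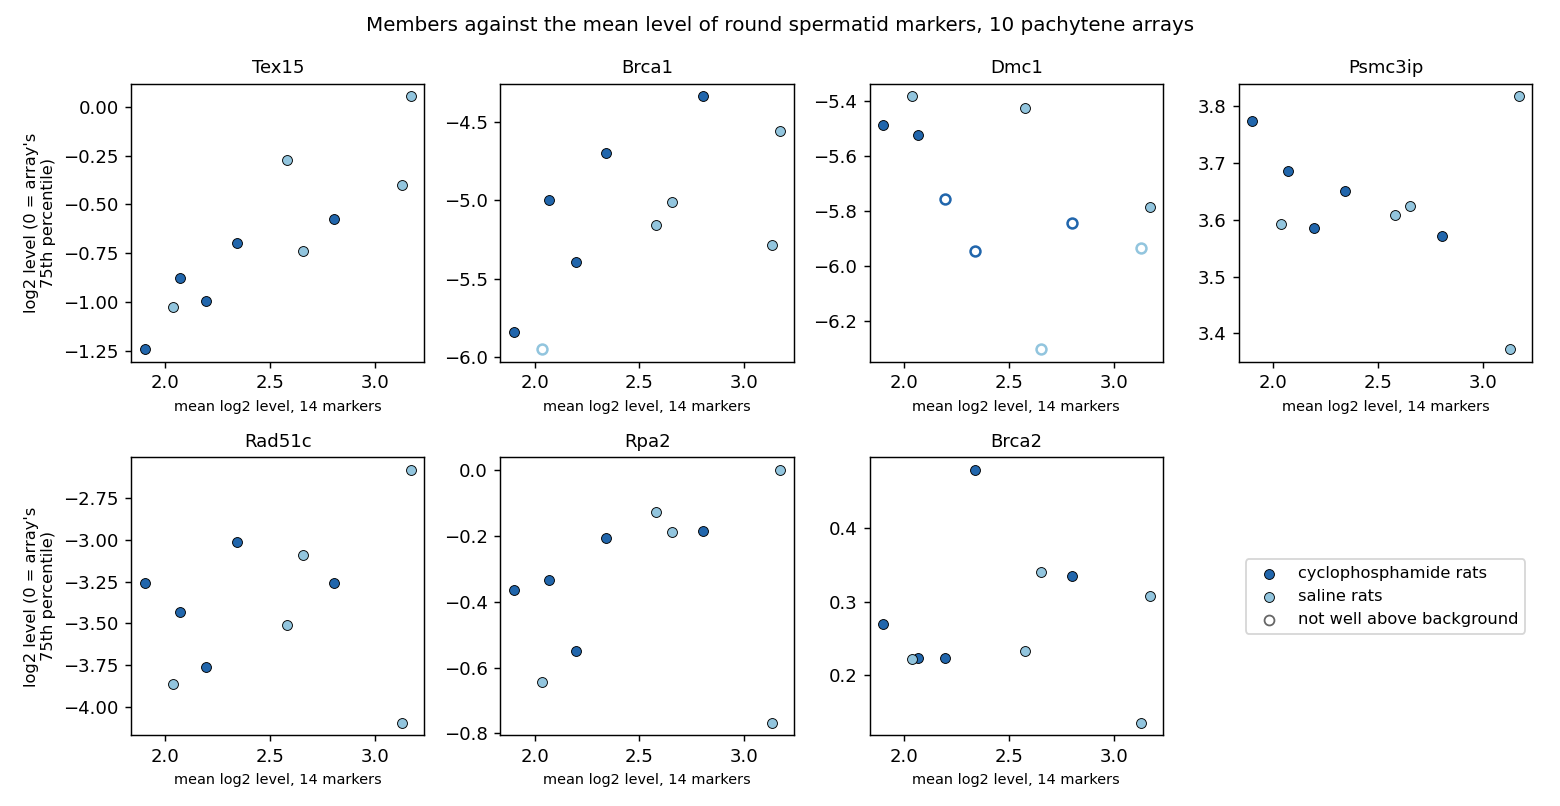
Level of each measured member against the mean log2 level of 14 round spermatid markers on the 10 pachytene arrays, both relative to the array's 75th percentile. Open points were not well above background. Tex15 climbs with the markers (r = 0.883), and no other panel shows a relation that passed.

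The other members showed small drug differences in pachytene spermatocytes. Brca1 stood at 0.14 ± 0.24, Rad51c at 0.08 ± 0.21, Brca2 at 0.06 ± 0.11, Psmc3ip at 0.05 ± 0.10 and Rpa2 at 0.02 ± 0.16 (log2, SE; limma adjusted p 0.903 to 0.986). Their groups overlapped. The 95% intervals were widest for Brca1, at -0.36 to 0.64, and narrowest for Psmc3ip, at -0.16 to 0.26. With the marker covariate Brca1 was 0.63 ± 0.23 (limma adjusted p = 0.988). Dmc1 was not tested there, since too few pachytene arrays were above background, and its group means were -5.71 in cyclophosphamide and -5.77 in saline rats.

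In round spermatids Rpa2 had the lowest unadjusted p. It was -0.33 ± 0.15 (log2, SE, n = 6 and 6 arrays; limma adjusted p = 0.9997), with means of -1.68 in cyclophosphamide and -1.35 in saline spermatids. Saline rat 17 was the highest of the 12 arrays, at -0.77, and without it the difference was -0.22. Within slides 1 and 2 it was -0.45 and -0.22. Brca1 stood at 0.23 ± 0.22, Dmc1 at 0.20 ± 0.16, Tex15 at -0.11 ± 0.16, Brca2 at 0.07 ± 0.10 and Psmc3ip at -0.04 ± 0.09. None passed. The dimmer Tex15 probe stood at 0.11 ± 0.19, opposite in sign to the brighter one. Rad51c was not tested, with means of -5.88 in cyclophosphamide and -5.78 in saline spermatids.

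The difference between the 2 drug effects did not pass for any member. For Dmc1 and Rad51c, 1 of the 2 effects was near background and could not be tested alone. The 2 members farthest from 0 were Rpa2, at -0.35 ± 0.22 (log2, SE; limma adjusted p = 0.659), and Tex15, at 0.29 ± 0.23 (limma adjusted p = 0.712). The dimmer Tex15 probe gave 0.55 ± 0.28 (limma adjusted p = 0.639). That probe was well above background on 0 of 5 cyclophosphamide and 1 of 5 saline pachytene arrays. Its drug effect in pachytene spermatocytes could not be tested alone, so the value rests partly on signal near background.

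**Figure D5:**
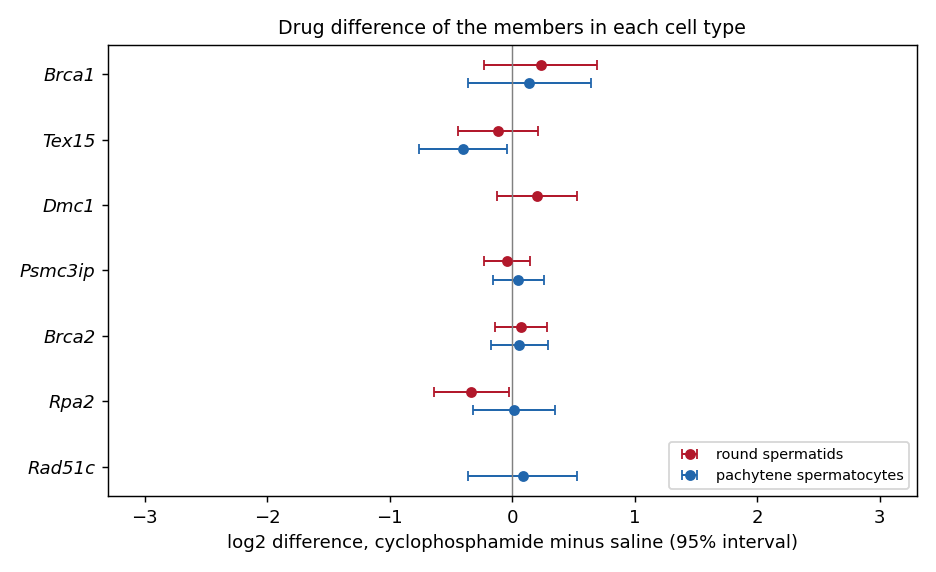
Log2 difference of cyclophosphamide minus saline for the measured members in round spermatids and in pachytene spermatocytes, with 95% intervals, on the same scale as the stage differences. Dmc1 was tested in round spermatids alone and Rad51c in pachytene spermatocytes alone. The intervals of Tex15 in pachytene spermatocytes and of Rpa2 in round spermatids lie below 0 before adjustment.

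None of the other recombination genes passed with the drug either, out of 33 tested in pachytene spermatocytes, 34 in round spermatids and 35 for the difference. In pachytene spermatocytes 23 of 33 lay above 0 (median 0.11, beside 0.03 over all genes), and the lowest unadjusted p values were those of Mcm8 (0.22 ± 0.11, log2, SE), Rbbp8 (0.19 ± 0.10) and Rad51d (0.21 ± 0.12). In round spermatids they were those of Rad51d (0.19 ± 0.11), Sfr1 (-0.44 ± 0.25) and Mre11 (0.19 ± 0.11), and 13 of 34 lay above 0. For the difference they were those of Rbbp8 (-0.33 ± 0.14; limma adjusted p = 0.634), Mcm8 (-0.32 ± 0.15) and Rec114 (-0.29 ± 0.14).

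For each member the 2 genes with the most similar pattern were sought among 11222 genes, by Pearson's r over the 22 arrays, as a description. The arrays share the stage difference. Tex15 was most like Rp2 (0.995) and Tsga13 (0.994), Rad51c like Atp2a2 (0.993) and Pim3 (0.992), and Brca1 like Map9 and Cidea (both 0.985). Rpa2 was most like Atad3a (0.971) and Psmb2 (0.97), Psmc3ip like Bub1 (0.954) and Sertad2 (0.951), and Dmc1 like Rapsn (0.948) and Mgat1 (0.947). For all of these pairs r was lower within a stage, from 0.52 (Psmc3ip with Sertad2, pachytene arrays) to 0.97 (Rad51c with Atp2a2, pachytene arrays). Brca2, with no stage call, reached 0.764 with Ing3 and Polr3b. Within the pachytene arrays its r was -0.233 with Ing3 and 0.684 with Polr3b, and within the round spermatid arrays 0.809 and 0.706.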

How the data were processed

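RNA from 22 samples was measured on one-colour Agilent arrays with Cy3 label. The authors deposited scanner files with a background-subtracted processed intensity per spot, made with Feature Extraction (11.5.1.1 per the submitters' processing notes, 10.7.3.1 per the file headers), and a value table of log2 values. Every probe of that deposited table had a median of 0 within each cell type (tolerance 0.001), so it served as an alternative for the drug comparisons alone. Its scale and direction followed from its correlation with each own array (0.959 to 0.994), its column medians were -0.00975 to 0.00702, and the authors' exact steps are not given in the sources used here.

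Control spots and outlier flags were left out, the spots of a probe were averaged, and each array's log2 processed signals were scaled to its 75th percentile. Of 30367 probes, 17998 (59.3%) mapped by accession to a symbol in RefSeq's table of GRCr8. The probe with the highest mean stood for a gene. A gene was tested where 1 of the groups compared had it well above background (more than 0.5 of its spots) on every array, or on every array except 1. Group means were fitted to all 22 arrays with limma 3.58.1 in R 4.3.3, and Benjamini-Hochberg adjusted p below 0.05 passed. Scripts were tested on simulated data. Relations used 100000 permutations.

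Arrays were taken as different rats, although 2 cyclophosphamide pachytene arrays carry the rat number 16 and the labels do not say whether a number names 1 animal in both cell types. Limma's p-values set each difference against 1 variance per gene, pooled over the arrays of all 4 groups and moderated across genes. They therefore do not reflect the spread of the 2 groups compared alone, and 5 or 6 arrays a group limit the precision. Same-numbered arrays deviated together in some pairs and not in others (r from -0.096 to 0.378). Differently numbered arrays of a treatment ranged from -0.343 to 0.37, and the main fit has no block. The alternatives were other scalings, normexp (on median signals, offset 50, since the files used have no mean signal), filters, slides, probe rules, the value table and leaving out each array. The members and lists were chosen with earlier results of these data known. Named genes were all members, the 6 largest rises and falls of the other list between stages in saline rats, its 3 lowest p in each drug comparison, and the 2 most correlated genes per member. Of the other list, 1 gene is counted but not reported by itself here.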

Additional observations from a re-analysis of the deposited data

Results flagged for a closer look

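Of 28 sets of member values, 1 per gene and group, 3 held an array that stood apart from the rest by the gap to its nearest neighbour as a share of the group's range, and chance alone gives about 1 in 20. Dmc1 in round spermatids of cyclophosphamide rat 14 was the highest of 6, at -4.08, where the next was -4.54 (gap 0.693 of the range). Rad51c in round spermatids of saline rat 17 was the highest of 6, at -5.35, where the next was -5.80 (gap 0.745), and it was 1 of the 2 saline arrays well above background. Rpa2 in round spermatids of cyclophosphamide rat 15 was the lowest of 6, at -1.95, where the next was -1.67 (gap 0.751). No cause was tested for these 3 arrays.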

How the results depend on the processing

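The stage calls of the 6 members that passed held, with their direction, under 7 alternatives each: the array median, quantile normalization, normexp with quantile normalization, no filter, slide as a block, the replicate block and the groups compared only. They also held with the mean of all probes and with any 1 array left out (6 members in each treatment), except within a single slide, where Rpa2 in saline rats (-0.39) and Psmc3ip (0.59 in cyclophosphamide rats within slide 1; 0.42 in cyclophosphamide and 0.60 in saline rats within slide 2) no longer passed. Asking for a probe well above background on every array left 3 members past the threshold in saline rats, against 6, because Dmc1, Rad51c and Brca1 were then not tested. The replicate block changed no call (0 members in each drug comparison, 6 in each stage comparison; consensus correlation 0.0204 to 0.0217). Whether same-numbered arrays come from 1 rat is not known.

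No drug difference of a member passed under any alternative. Of all member values 43, none of which had passed, changed sign, 18 of them with 1 array left out, and the cause was not tested. For cyclophosphamide minus saline in pachytene spermatocytes these were Psmc3ip after quantile normalization (-0.0016), with normexp (-0.0369) and in the value table (-0.0064); within slide 2, Tex15 (0.0428) and Rpa2 (-0.0190); within slide 3, Rad51c (-0.0866), Brca1 (-0.0351), Brca2 (-0.0097) and Rpa2 (-0.3159); within slide 4, Rad51c (-0.0357), Brca1 (-0.5869) and Rpa2 (-0.0424). In round spermatids they were Psmc3ip (0.0701) and Tex15 (0.0245) within slide 1. For the difference of the drug effects they were Brca2 with the array median (-0.0001) and normexp (-0.0104), and Psmc3ip with normexp (0.0301); within slide 1, Brca1 (-0.5863) and Brca2 (-0.1885); within slide 2, Dmc1 (-0.1839), Rad51c (0.0272), Tex15 (-0.2957), Brca1 (-0.2094) and Brca2 (-0.0020). Between stages in saline rats it was Brca2 within slide 1 (0.0063).

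With 1 array left out, the pachytene drug difference ran from -0.0495 to 0.336 for Brca1, -0.0073 to 0.1042 for Psmc3ip, -0.0824 to 0.2961 for Rad51c and -0.0881 to 0.104 for Rpa2. That of Brca2 in round spermatids ran from -0.0101 to 0.1329. The difference of the drug effects ran from -0.1019 to 0.2837 for Brca1 and from -0.0683 to 0.0748 for Brca2. Signal near background limits Dmc1 and the dimmer Tex15 probe in pachytene spermatocytes, and Rad51c in round spermatids. Brca1 was also dim in pachytene spermatocytes, and the size of its stage difference depends on the background correction.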

Other observations

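Values of other recombination genes between the stages follow, as log2 differences of round spermatids minus pachytene spermatocytes. Hormad1, an axis protein, fell by 1.93 in cyclophosphamide rats and by 1.67 in saline rats, and Rec114 fell by 1.43 in cyclophosphamide rats and by 1.14 in saline rats. Hormad2, the relative of Hormad1, stood at 0.01 in cyclophosphamide rats and -0.27 in saline rats and did not pass in either. The resection factor Rbbp8 fell by 2.15 in cyclophosphamide rats and by 1.82 in saline rats. The helicase subunit Mcm8 stood at -1.59 in cyclophosphamide rats and -1.28 in saline rats. The mediators stood at -2.26 and -1.81 for Swsap1 and at -1.16 and -0.91 for Zswim7, in cyclophosphamide and saline rats. The kinase Atm (-0.42 in cyclophosphamide rats, -0.32 in saline rats) and Mdc1, which binds phosphorylated H2ax (0.41 and 0.21), passed in cyclophosphamide rats alone, and the difference between treatments did not pass for either. These genes were chosen after their values were seen.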
